A study of Homo sapiens with 12 samples.

Results

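The response of H69 cholangiocytes to TGFβ in the presence of Aramchol was read from 6 of the study's 12 RNA sequencing libraries, chosen by their labels. Of these, 3 came from cells given TGFβ at 10 ng/mL together with Aramchol at 30 µM (TGFβ + Aramchol), and 3 from cells given Aramchol at 30 µM alone (Aramchol). The other 6 libraries, 3 of cells given TGFβ alone and 3 of cells given vehicle, shared the estimate of spread and served to ask whether the response differed without the compound. H69 is 1 human cholangiocyte line, the bile duct epithelium in culture, that carries a viral large T antigen as its immortalising gene. That antigen is known to inactivate the RB and p53 proteins. All cells were kept without serum for 6 h and were then treated overnight in serum-free medium, so both groups compared here carried the compound and the same starvation. The Aramchol dose is stated for the series as a whole and was taken for both groups. Nothing in the labels says that the 3 libraries of a group are separate cultures, so the p-values cover the spread among these libraries, which may be technical.

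TGFβ is made as a latent precursor that is held in the matrix by binding proteins and released by integrins and proteases. The active cytokine joins its type II and type I receptors, which phosphorylate SMAD2 and SMAD3. With SMAD4 these enter the nucleus and act on target genes together with partners such as AP-1, while SMAD7, SKIL and PMEPA1 are induced as brakes on the same pathway. In bile duct cells the cytokine is known for growth arrest, matrix secretion and loss of epithelial junctions. Aramchol is a bile acid joined to a saturated fatty acid and is known for lowering stearoyl-CoA desaturase, the enzyme that desaturates long-chain fatty acids.

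Total counts were 67718299, 61867133 and 70339925 in the TGFβ + Aramchol libraries and 52279922, 69421963 and 63768405 in the Aramchol libraries, and 21567 genes were tested. Levels are given in CPM, which are counts relative to library totals, scaled by TMM factors (0.930 to 1.09), and fold changes on the log2 scale. A number by which a gene rose or fell is its log2 fold change, and a single level for a group is the mean of its 3 libraries. The library numbered 3 stood apart in each of the 4 groups on the third principal component, between 17.0 and 35.1, while the libraries numbered 1 and 2 lay between -20.4 and -5.50. The sources used here do not say what this number shares. Where it touches a result, the value is given there. As a check of the label, the cholangiocyte keratin genes KRT7 (792 ± 87.1 CPM in TGFβ + Aramchol and 506 ± 99.3 CPM in Aramchol) and KRT19 (15.6 ± 0.940 CPM in TGFβ + Aramchol and 25.8 ± 2.85 CPM in Aramchol; SD, n = 3 libraries each) and the duct transcription factor gene SOX9 (7.25 ± 0.673 CPM in TGFβ + Aramchol and 11.3 ± 0.640 CPM in Aramchol) were present. CFTR and SCTR, which mark bile duct cells in tissue, were at most 0.149 CPM in each of the 6 libraries, and of the 27 genes in the cholangiocyte list 8 were too low to be tested.

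With TGFβ on top of Aramchol, 6514 of 21567 genes (30.2%) passed an adjusted p of 0.05 by edgeR's quasi-likelihood test. These are called below. Of them 3450 (16.0% of all genes) rose and 3064 (14.2%) fell, and the median log2 fold change over all genes was -0.01. Changes of at least 2-fold were found in 1896 genes (8.79%), of which 1123 (5.21%) rose and 773 (3.58%) fell. Large changes lay mostly on the side of the rises: 466 genes rose and 221 fell at least 4-fold, and 229 rose and 62 fell at least 8-fold. The 3 TGFβ + Aramchol libraries did not overlap the 3 Aramchol libraries in 44.6% of genes (22.7% above and 21.8% below). Protein coding genes were called higher in 20.3% and lower in 17.5% of cases, and long noncoding genes in 8.74% and 9.47%. With upper quartile scaling 3112 genes rose and 3493 fell, so which direction held more genes depended on the scaling.

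**Figure D1:**
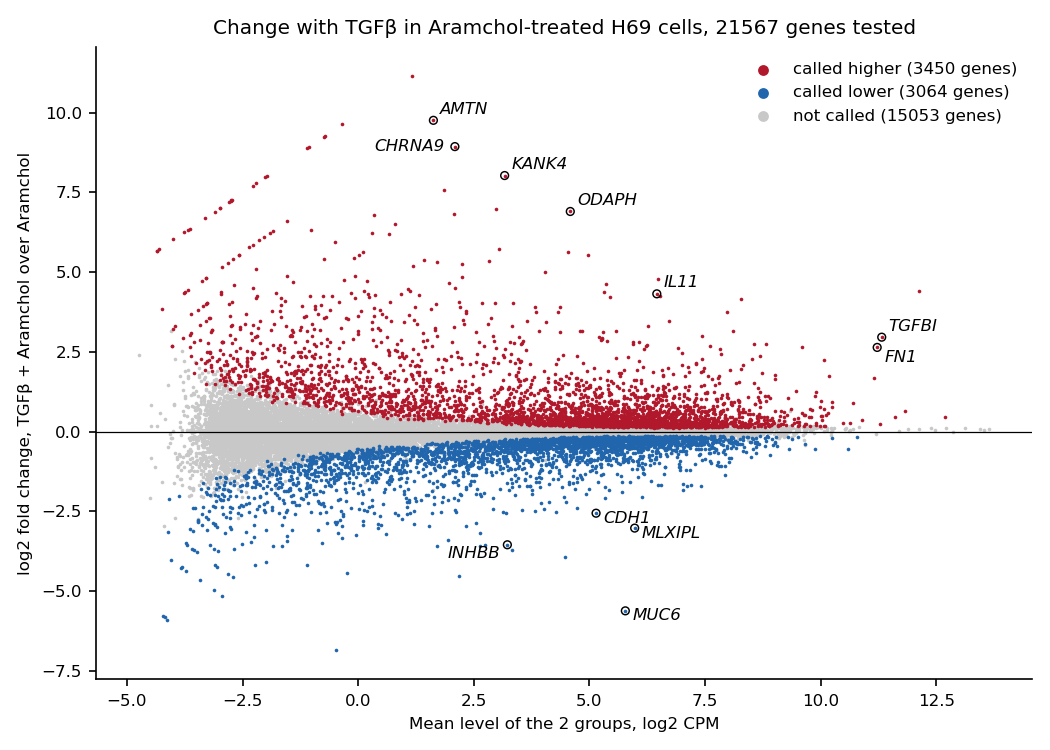
Each point is 1 of 21567 genes, with the mean level of the TGFβ + Aramchol and Aramchol groups in log2 CPM on the x axis and the log2 fold change of TGFβ + Aramchol over Aramchol on the y axis; red points are called higher (3450), blue points called lower (3064) and grey points not called. TGFBI and FN1 combine a high level with a large rise, and MUC6 is the lowest of the labelled genes.

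Most genes in the list of TGFβ ligands and latency proteins, which also holds activin genes, rose. TGFB1, the main ligand gene, was at 287, 269 and 361 CPM in the TGFβ + Aramchol libraries and at 108, 105 and 120.5 CPM in the Aramchol libraries, with no overlap (log2 fold change 1.46, SE 0.11). LTBP2, a latent TGFβ binding protein of the matrix, rose by 2.74 (653 CPM in TGFβ + Aramchol, 98.0 CPM in Aramchol), FSTL3, a secreted antagonist of activin, by 1.67 (332 CPM in TGFβ + Aramchol, 104 CPM in Aramchol), and the activin A subunit gene INHBA by 3.15. INHBA was at 50.6, 53.8 and 49.2 CPM with TGFβ + Aramchol and at 6.50, 6.74 and 4.07 CPM with Aramchol, and the lowest value of all was Aramchol replicate 3. Other genes of this list fell: INHBB, the activin B subunit gene, by 3.55 (1.47 CPM in TGFβ + Aramchol, 17.2 CPM in Aramchol), NRROS, which anchors latent TGFβ on cells, by 1.37, and the ligand gene TGFB2 by 0.56 (56.6 CPM in TGFβ + Aramchol, 83.2 CPM in Aramchol). In all, 10 of 16 ligand and latency genes rose and 3 fell, with a median log2 fold change of 0.98. Over all genes 16.0% rose and 14.2% fell, which is the background for each list that follows.

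Among 12 receptor genes 4 rose and 2 fell. The type I receptor genes TGFBR1 (98.3 CPM in TGFβ + Aramchol, 58.0 CPM in Aramchol) and ACVR1 (48.1 CPM in TGFβ + Aramchol, 33.7 CPM in Aramchol) rose by 0.76 and 0.51, the BMP type II receptor gene BMPR2 by 0.79 and the coreceptor gene ENG by 1.15. The type II receptor gene TGFBR2, which binds the cytokine first, was at 275, 294 and 225 CPM with TGFβ + Aramchol and at 471, 476 and 417 CPM with Aramchol. It fell by 0.78 (SE 0.14, edgeR adjusted p = 0.000372), and the groups did not overlap. TGFBR3, a coreceptor that presents the ligand, fell by 1.46 (5.83 CPM in TGFβ + Aramchol, 16.0 CPM in Aramchol).

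The brakes on SMAD signalling rose strongly, while SMAD2 was the 1 SMAD gene that fell. SMAD7 (chromosome 18, 48919853 to 48950965, minus strand, GRCh38), which blocks the type I receptor, was at 74.8, 69.3 and 67.9 CPM in the TGFβ + Aramchol libraries, against 8.71, 7.44 and 7.99 CPM in the Aramchol libraries. The groups were far apart, at a log2 fold change of 3.14 (SE 0.10, edgeR adjusted p = 3.96e-12). PMEPA1, which keeps SMAD2 and SMAD3 from the receptor, was at 593, 561 and 597 CPM in TGFβ + Aramchol against 33.1, 29.9 and 34.7 CPM in Aramchol and rose by 4.16. SKIL, a SMAD corepressor, rose by 1.93 (151 CPM in TGFβ + Aramchol, 39.6 CPM in Aramchol), the inhibitory SMAD gene SMAD6 by 1.31 and the ubiquitin ligase gene SMURF2 by 1.06. SMAD2, which carries the signal, fell by 0.23 (127 CPM in TGFβ + Aramchol, 149 CPM in Aramchol). SMAD3 (log2 fold change -0.16) and SMAD4 (-0.04), read after their values were seen, were not called (edgeR adjusted p = 0.178 and 0.655). Of 19 SMAD and corepressor genes 9 rose and 1 fell.

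Promoter letters are shown for 4 genes that moved. They come from the brakes (SMAD7), the secreted signals (IL11), the largest rises (ODAPH) and the epithelial falls (ELF3). The genes were chosen after their values were seen. Each promoter shown holds the motif marked in it, so these examples do not show how often a motif occurs among such genes. Shares over sets of genes are given after the letters. Each window runs from 250 bases before to 50 after the start site, as RefSeq gives it on GRCh38.p14 and 5′ to 3′ on the gene's strand. Capitals mark CAGAC, a SMAD binding element, in SMAD7 (chr18:48950916-48951215, minus strand), TGACTCA or its reverse complement, the AP-1 element, in IL11 (chr19:55370414-55370713, minus strand) and ODAPH (chr4:75555816-75556115, plus strand), and CACCTG, an E-box that SNAI and ZEB repressors can bind, in ELF3 (chr1:202010337-202010636, plus strand).
SMAD7: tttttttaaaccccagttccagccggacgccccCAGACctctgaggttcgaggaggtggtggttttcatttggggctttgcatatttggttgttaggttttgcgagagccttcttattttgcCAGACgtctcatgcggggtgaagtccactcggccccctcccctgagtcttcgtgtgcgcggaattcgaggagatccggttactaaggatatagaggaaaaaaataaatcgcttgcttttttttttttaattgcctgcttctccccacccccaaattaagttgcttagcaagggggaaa
IL11: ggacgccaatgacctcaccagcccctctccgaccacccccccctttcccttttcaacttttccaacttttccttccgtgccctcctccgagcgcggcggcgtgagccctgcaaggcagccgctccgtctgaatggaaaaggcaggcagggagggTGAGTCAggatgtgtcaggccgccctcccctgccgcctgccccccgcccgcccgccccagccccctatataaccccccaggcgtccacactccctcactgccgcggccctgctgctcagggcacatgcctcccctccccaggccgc
ODAPH: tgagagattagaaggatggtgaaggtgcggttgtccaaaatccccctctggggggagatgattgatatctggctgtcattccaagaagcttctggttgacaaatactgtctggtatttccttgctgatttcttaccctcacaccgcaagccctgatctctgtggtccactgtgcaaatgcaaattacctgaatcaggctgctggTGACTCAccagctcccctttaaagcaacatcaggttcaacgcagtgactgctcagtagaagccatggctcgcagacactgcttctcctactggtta
ELF3: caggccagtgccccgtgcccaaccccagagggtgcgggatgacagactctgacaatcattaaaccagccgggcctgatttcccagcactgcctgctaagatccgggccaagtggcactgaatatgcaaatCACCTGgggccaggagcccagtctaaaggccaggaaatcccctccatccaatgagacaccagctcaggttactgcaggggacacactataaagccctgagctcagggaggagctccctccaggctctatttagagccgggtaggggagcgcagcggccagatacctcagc

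The 2 SMAD7 matches began 217 and 128 bases before the start site, that of IL11 96, that of ODAPH 46 and that of ELF3 120 bases before it. Motifs were searched on both strands in the 13051 tested genes that have a window. CAGAC is common: it was in 49.3% of the windows of genes that rose at least 2-fold, in 41.5% of those of genes that fell at least 2-fold and in 43.7% of all windows. TGACTCA was in 8.42% of the 677 windows of the rises, in 4.64% of the 431 windows of the falls and in 3.65% of all. CACCTG was in 22.6% of the rises, in 29% of the falls and in 19.2% of all. The SMAD palindrome GTCTAGAC, which holds CAGAC on neither strand, was in 0.443% of the rises, in none of the falls and in 0.184% of all windows, and TGATGCAA, the CEBP-ATF element, in 0.886% of the rises, 0.464% of the falls and 0.506% of all. The windows of the 14 early SMAD target genes held CAGAC in 4 (28.6%, against 43.7% of all windows), CACCTG in 1 and TGACTCA in none. Matches of a motif other than the one named for a window are left in lower case. These are counts of letters in 1 window for each gene and say nothing of binding.

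Early target genes of SMAD signalling rose almost without exception, with 21 of 22 higher, 1 lower and a median log2 fold change of 1.84. The list was chosen with earlier results of these data known, so this share is a description and not a test. TGFBI, a secreted adhesion protein, was at 4409, 4108 and 5055 CPM in TGFβ + Aramchol against 549, 557 and 635 CPM in Aramchol and rose by 2.96 (SE 0.09), with the groups far apart. PDGFB, which drives the growth of fibroblasts and pericytes, rose by 3.49 (193 CPM in TGFβ + Aramchol, 17.3 CPM in Aramchol), the matricellular gene CCN2 by 2.15 (259 CPM in TGFβ + Aramchol, 58.4 CPM in Aramchol), the AP-1 gene JUNB by 2.27 and the repressor gene BHLHE40 by 2.42. The exception was CITED2, a coactivator partner, which was at 66.4, 68.4 and 53.9 CPM with TGFβ + Aramchol against 219, 212 and 161 CPM with Aramchol and fell by 1.65. Both groups had their lowest CITED2 value in the library numbered 3, and the groups did not overlap.

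**Figure D2:**
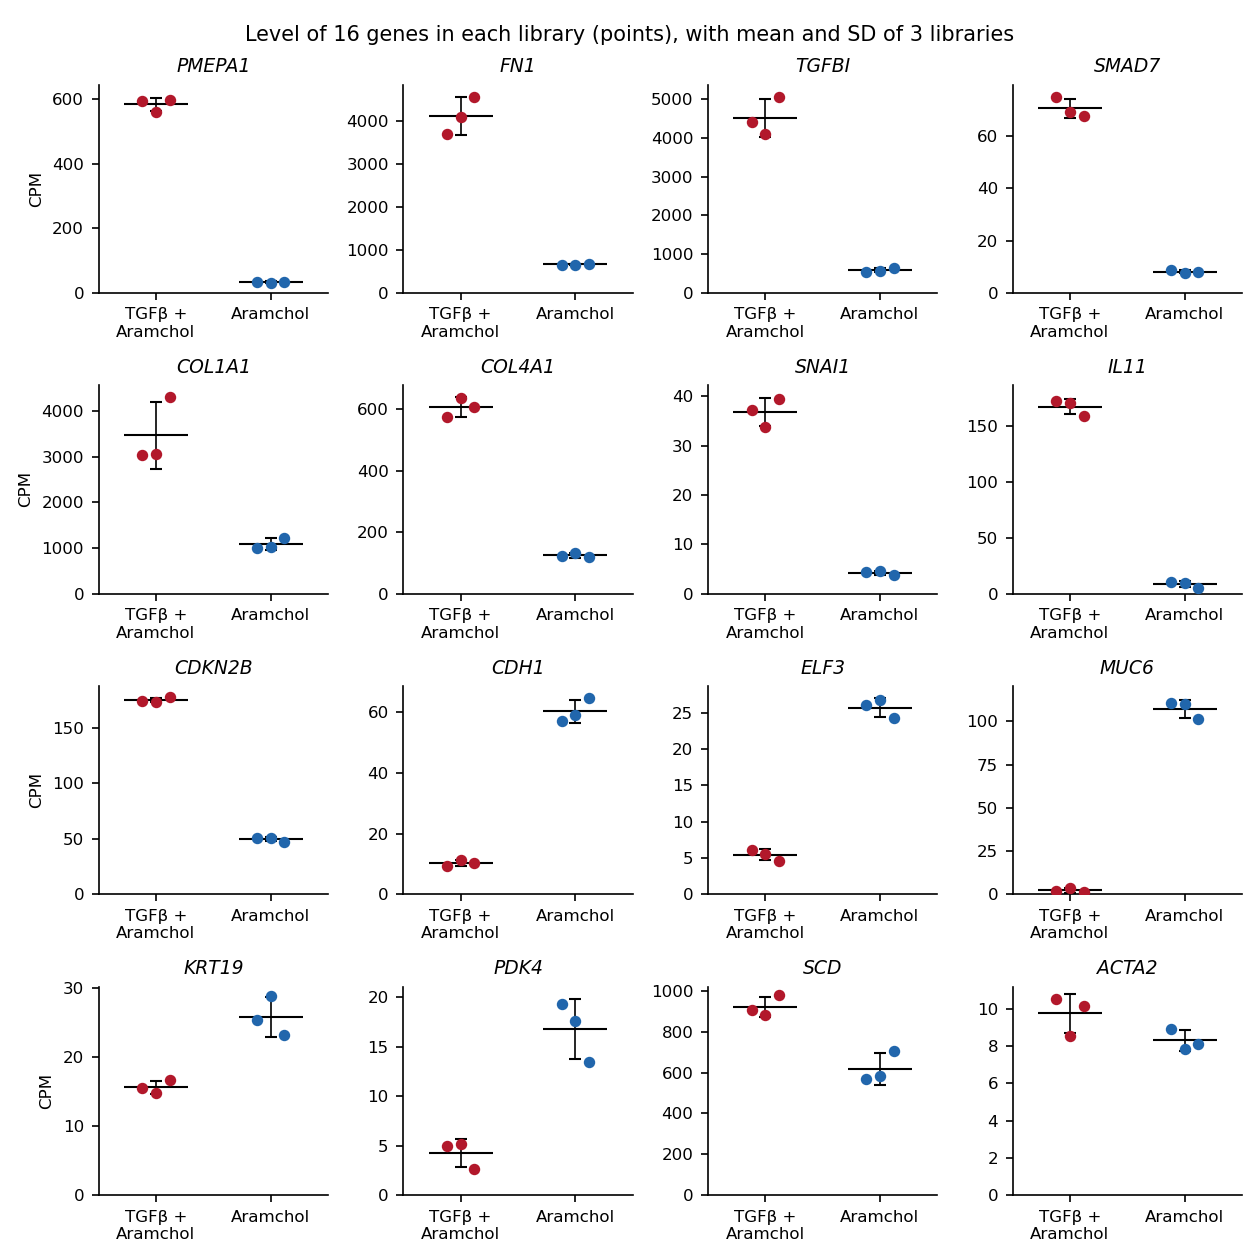
Level in CPM of 16 genes in each of the 3 TGFβ + Aramchol libraries (red, left in each panel) and the 3 Aramchol libraries (blue, right), with horizontal lines for the means and bars for the SD; each panel has its own axis from 0. The groups are far apart for the targets, matrix and epithelial genes, and ACTA2 is the panel in which they overlap.

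Most ID and BMP genes rose. ID1 and ID3 encode inhibitors of helix-loop-helix factors and are the usual targets of the BMP branch. ID3 was at 34.5, 29.7 and 39.4 CPM with TGFβ + Aramchol against 11.6, 10.9 and 8.73 CPM with Aramchol, and rose by 1.73. ID1 rose by 0.69 (46.0 CPM in TGFβ + Aramchol, 28.6 CPM in Aramchol) and HEY1, a Notch and BMP target, by 2.57. The ligand gene BMP4 fell by 1.41 (15.3 CPM in TGFβ + Aramchol, 40.7 CPM in Aramchol) and the transcription factor gene ATOH8 by 2.08 (15.5 CPM in TGFβ + Aramchol, 65.3 CPM in Aramchol). Of 12 genes 8 rose and 2 fell.

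Matrix genes rose as a large group. FN1 (chromosome 2, 215360440 to 215436073, minus strand, GRCh38), the fibronectin gene, was at 3686, 4091 and 4554 CPM in the TGFβ + Aramchol libraries and at 643, 657 and 676 CPM in the Aramchol libraries, a rise of 2.64 (SE 0.09, edgeR adjusted p = 5.74e-12). The lowest TGFβ + Aramchol value lay far above the highest Aramchol value. The glycoprotein genes TNC (tenascin C, 469 CPM in TGFβ + Aramchol, 35.0 CPM in Aramchol), MFAP2 (a microfibril protein, 23.0 CPM in TGFβ + Aramchol, 2.09 CPM in Aramchol), SPOCK1 (a proteoglycan, 131 CPM in TGFβ + Aramchol, 20.1 CPM in Aramchol) and COMP (a collagen-binding protein, 15.8 CPM in TGFβ + Aramchol, 0.121 CPM in Aramchol) rose by 3.75, 3.46, 2.7 and 6.98. In the list of glycoproteins and proteoglycans 16 of 27 rose and 4 fell, with a median log2 fold change of 0.47. Its genes took 0.665 to 0.784% of all counts with TGFβ + Aramchol against 0.244 to 0.252% with Aramchol, and much of this rise was FN1. Of summed levels of 6933, 7383.5 and 8217.6 CPM in TGFβ + Aramchol, FN1 alone held 3686, 4091 and 4554 CPM. In Aramchol it held 643, 657 and 676 CPM of 2328.8, 2391.2 and 2385.6 CPM. Among the falls was CCN3, a matricellular antagonist of CCN2, at 0.750 CPM in TGFβ + Aramchol and 1.85 CPM in Aramchol.

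COL1A1 (chromosome 17, 50184101 to 50201632, minus strand, GRCh38), the main fibrillar collagen chain, was at 3034, 3067 and 4314 CPM with TGFβ + Aramchol and at 999.5, 1022 and 1228 CPM with Aramchol. It rose by 1.68 (SE 0.14), and in both groups the library numbered 3 was the highest. COL5A1, a chain that starts collagen fibrils, rose by 2.26 (1789 CPM in TGFβ + Aramchol, 374 CPM in Aramchol), COL27A1 by 2.63, COL6A3 by 3.15 and COL16A1 by 2.12. Of 17 fibrillar and associated collagens 11 rose and 1 fell, COL12A1 by 0.38. COL3A1, the collagen of fibroblasts, was at most 0.0957 CPM in each library. Basement membrane genes split: 10 of 21 rose and 7 fell. COL4A1 was at 575, 637 and 608 CPM in TGFβ + Aramchol against 122, 132 and 118 CPM in Aramchol and rose by 2.29, COL4A2 by 1.27, and the laminin chain LAMB1 by 0.72.

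Enzymes that finish and crosslink collagen rose with it, 15 of 20 against 1 that fell. LOX, which crosslinks collagen and elastin, was at 87.9, 93.8 and 128 CPM in TGFβ + Aramchol and at 23.7, 25.4 and 31.5 CPM in Aramchol (log2 fold change 1.94). The prolyl hydroxylase genes P4HA2 and P4HA3 rose by 1.26 and 3.0, and the procollagen proteinase genes BMP1 and ADAMTS2 by 0.91 and 2.12. ADAMTS14, a related proteinase, was the 1 that fell, by 1.79. Of 24 proteases and inhibitors 17 rose and 3 fell. PLAU, the urokinase gene, rose by 2.73 (789 CPM in TGFβ + Aramchol, 119 CPM in Aramchol), SERPINE2, an inhibitor of thrombin and urokinase, by 2.82, ADAM19 by 2.60, the gelatinase gene MMP2 by 1.73 (342 CPM in TGFβ + Aramchol, 103 CPM in Aramchol) and TIMP1, a metalloproteinase inhibitor, by 1.16. TIMP3 fell by 1.18, MMP24 by 1.72 and MMP15 by 0.61.

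Integrins, the receptors that bind matrix and release latent TGFβ, moved in both directions, with 9 of 18 higher and 4 lower. ITGA11, a collagen receptor subunit, was at 54.5, 55.7 and 75.0 CPM with TGFβ + Aramchol and at 1.22, 1.41 and 1.34 CPM with Aramchol, a rise of 5.53. The fibronectin receptor subunits ITGA5 and ITGB1 rose by 1.04 (845 CPM in TGFβ + Aramchol, 411 CPM in Aramchol) and 0.91 (2153 CPM in TGFβ + Aramchol, 1143 CPM in Aramchol), and ITGB3, ITGB5 and ITGB6, partners of the alpha V chain, by 2.04, 0.79 and 2.91. ITGB8, another subunit that releases latent TGFβ, fell by 1.59 (11.7 CPM in TGFβ + Aramchol, 35.1 CPM in Aramchol), ITGA10 by 1.11 and the laminin receptor subunit ITGA6 by 0.48. ITGB2, the remaining fall, was at 1.33 CPM in TGFβ + Aramchol and 2.41 CPM in Aramchol and missed the threshold without Aramchol replicate 1 or 2 or TGFβ + Aramchol replicate 1 or 3 (edgeR adjusted p up to 0.147).

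Of 19 mesenchymal genes 14 rose and 2 fell. SNAI1, a repressor of E-cadherin, was at 37.3, 33.8 and 39.4 CPM in TGFβ + Aramchol and at 4.35, 4.57 and 3.81 CPM in Aramchol, with a log2 fold change of 3.12 (SE 0.11). Its relative SNAI2 rose by 2.36 (44.3 CPM in TGFβ + Aramchol, 8.60 CPM in Aramchol), the forkhead gene FOXS1 by 5.0 (32.0 CPM in TGFβ + Aramchol, 0.991 CPM in Aramchol), the Wnt ligand gene WNT5B by 2.95, the intermediate filament gene VIM by 1.11 (1279 CPM in TGFβ + Aramchol, 591 CPM in Aramchol) and the N-cadherin gene CDH2 by 1.10 (468 CPM in TGFβ + Aramchol, 218 CPM in Aramchol). ZEB1, another E-cadherin repressor, was at 27.0, 29.6 and 31.3 CPM in TGFβ + Aramchol against 25.7, 24.5 and 29.9 CPM in Aramchol and was not called (edgeR adjusted p = 0.43), while TWIST1 and S100A4 fell by 0.49 and 0.92.

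Of 21 contractile and cytoskeletal genes 11 rose and 2 fell, and the list took 0.776 to 0.809% of counts with TGFβ + Aramchol against 0.546 to 0.564% with Aramchol. The smooth muscle genes CNN1 (calponin) and TAGLN (transgelin) rose by 4.04 (19.2 CPM in TGFβ + Aramchol, 1.16 CPM in Aramchol) and 3.17 (85.1 CPM in TGFβ + Aramchol, 9.45 CPM in Aramchol), and the tropomyosin gene TPM1 by 2.65 (1338 CPM in TGFβ + Aramchol, 213 CPM in Aramchol). ACTA2, the smooth muscle actin of myofibroblasts, was at 10.6, 8.57 and 10.2 CPM with TGFβ + Aramchol and at 8.95, 7.86 and 8.15 CPM with Aramchol. These values overlapped, and ACTA2 was not called (log2 fold change 0.23, SE 0.11, edgeR adjusted p = 0.135). The falls were SORBS2, an actin-linked adaptor, by 0.93, and the smooth muscle gene LMOD1 by 1.86.

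Epithelial genes fell in part. CDH1 (chromosome 16, 68737292 to 68835537, plus strand, GRCh38), the E-cadherin gene, was at 9.30, 11.3 and 10.2 CPM in the TGFβ + Aramchol libraries and at 57.3, 59.2 and 64.6 CPM in the Aramchol libraries, a fall of 2.56 (SE 0.10, edgeR adjusted p = 3.33e-11). The highest TGFβ + Aramchol value was far below the lowest Aramchol value. ELF3, an epithelial ETS factor whose promoter is printed above, was at 6.08, 5.59 and 4.62 CPM in TGFβ + Aramchol against 26.0, 26.8 and 24.2 CPM in Aramchol and fell by 2.24. EHF, a related factor, fell by 2.08, the basal cell factor gene TP63 by 2.91 (0.254 CPM in TGFβ + Aramchol, 1.90 CPM in Aramchol) and the liver and gut factor gene FOXA2 by 0.73 (32.4 CPM in TGFβ + Aramchol, 53.8 CPM in Aramchol). Of 15 epithelial regulators 8 fell and 2 rose, among them FOXA3 (0.82).

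Junction genes were split, with 10 of 32 lower and 8 higher. TJP3, a tight junction scaffold, fell by 2.54 (0.894 CPM in TGFβ + Aramchol, 5.19 CPM in Aramchol) and the adhesion gene EPCAM by 1.05 (3.55 CPM in TGFβ + Aramchol, 7.38 CPM in Aramchol). PKP1, a desmosome protein of stratified epithelia, rose by 4.64 (78.9 CPM in TGFβ + Aramchol, 3.17 CPM in Aramchol) and the tight junction gene CLDN4 by 1.33 (13.5 CPM in TGFβ + Aramchol, 5.35 CPM in Aramchol). Keratins of stratified and stressed epithelia rose: KRT17 by 3.14 (493 CPM in TGFβ + Aramchol, 55.9 CPM in Aramchol), KRT16 by 4.02 (11.9 CPM in TGFβ + Aramchol, 0.744 CPM in Aramchol), KRT14 by 6.22 and KRT6A by 1.94. These are closely similar genes whose reads may be split, so that single members are uncertain. KRT8 rose by 0.51 (931 CPM in TGFβ + Aramchol, 654 CPM in Aramchol). KRT19, a keratin of bile duct cells, was at 15.5, 14.8 and 16.6 CPM with TGFβ + Aramchol and at 25.3, 28.9 and 23.2 CPM with Aramchol, without overlap, and fell by 0.72 (edgeR adjusted p = 0.00621).

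KRT7, the other bile duct keratin, was at 872, 804 and 699 CPM in TGFβ + Aramchol against 569, 558 and 392 CPM in Aramchol. The library numbered 3 was the lowest in both groups, and the gene was not called (0.65, edgeR adjusted p = 0.0576). KRT7 was called in 7 of the 21 alternatives (edgeR adjusted p 1.59e-27 to 0.0455). These were no filter, the replicate block, only the groups compared, the term for number 3 (0.00122) and the libraries numbered 1 and 2. The others were the fits without Vehicle replicate 1 (0.0455) or 3 (0.000237). In the keratin list 5 of 13 rose and 1 fell. Of 19 cholangiocyte genes 5 rose and 8 fell: MUC6, a mucin of duct glands, fell by 5.62, SOX9 by 0.64, and the water channel gene AQP1 rose by 3.92 (8.66 CPM in TGFβ + Aramchol, 0.577 CPM in Aramchol), the surface gene CD24 by 1.00, the anion exchanger gene SLC4A2 by 0.56 and the bile salt exporter gene ABCC3 by 0.59. ONECUT1, a duct factor at 0.426 CPM in TGFβ + Aramchol and 0.170 CPM in Aramchol, was called but missed the threshold without any 1 of Aramchol replicates 1, 2 and 3 or TGFβ + Aramchol replicates 1 and 2 (edgeR adjusted p up to 0.148). MUC6 was at 2.08, 3.46 and 1.09 CPM in TGFβ + Aramchol and at 110.5, 110.2 and 101 CPM in Aramchol, the largest fall among the protein coding genes named by rule.

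Secreted signals went in both directions, with 6 of 27 cytokines and chemokines higher and 10 lower. IL11 (chromosome 19, 55364382 to 55370463, minus strand, GRCh38), a cytokine tied to fibrosis, was at 172, 170.3 and 159 CPM with TGFβ + Aramchol against 10.6, 9.26 and 5.32 CPM with Aramchol and rose by 4.32 (SE 0.23). The 3 Aramchol values spread more, relative to their mean, than the 3 TGFβ + Aramchol values. CSF2, a growth factor for myeloid cells, rose by 2.12 (21.2 CPM in TGFβ + Aramchol, 4.90 CPM in Aramchol). The neutrophil chemokine genes CXCL5 and CXCL6 fell by 1.63 (8.48 CPM in TGFβ + Aramchol, 26.2 CPM in Aramchol) and 1.22 (5.71 CPM in TGFβ + Aramchol, 13.3 CPM in Aramchol). IL6 was at 59.5, 61.6 and 37.6 CPM with TGFβ + Aramchol and at 65.5, 65.0 and 25.6 CPM with Aramchol, with the library numbered 3 the lowest in both, and was not called (edgeR adjusted p = 0.969). CCL2, a monocyte chemokine at 1.07 CPM in TGFβ + Aramchol and 0.589 CPM in Aramchol, was called but missed the threshold without Aramchol replicate 1 or 2, TGFβ + Aramchol replicate 1 or 3 or TGFβ replicate 2, and in the fit of only the groups compared (edgeR adjusted p up to 0.156).

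Among 30 growth factor and receptor genes 18 rose and 7 fell. PDGFRB, the receptor for PDGFB, rose by 1.78 (150.2 CPM in TGFβ + Aramchol, 43.8 CPM in Aramchol), the lymphatic growth factor gene VEGFC by 1.66 (52.1 CPM in TGFβ + Aramchol, 16.4 CPM in Aramchol), the EGF receptor ligand gene TGFA by 1.69 (40.7 CPM in TGFβ + Aramchol, 12.6 CPM in Aramchol) and the insulin-like growth factor binding protein gene IGFBP7 by 2.02 (226 CPM in TGFβ + Aramchol, 55.8 CPM in Aramchol).

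In the list of Notch and Wnt genes 12 of 24 rose and 4 fell. The Notch ligand gene JAG1 rose by 1.05 (164 CPM in TGFβ + Aramchol, 79.3 CPM in Aramchol) and the Notch target gene HES1 by 1.19, while the receptor gene NOTCH1 and the ligand gene JAG2 fell by 0.54 and 0.38. NKD1, an antagonist of Wnt signalling, was at 14.8, 15 and 19.1 CPM in TGFβ + Aramchol and at 0.347, 0.301 and 0.283 CPM in Aramchol (log2 fold change 5.72), and its relative NKD2 fell by 1.71 (6.16 CPM in TGFβ + Aramchol, 20.1 CPM in Aramchol), as did RNF43, which removes Wnt receptors, by 1.53. The 21 YAP and TAZ targets held 10 rises and 3 falls. The tissue factor gene F3 rose by 1.48 (264 CPM in TGFβ + Aramchol, 94.7 CPM in Aramchol) and DLC1, which restrains the GTPase RHOA, by 0.77. CRIM1 and AJUBA fell by 0.64 and 0.37. The third fall of that list, TGFB2, is given with the ligands.

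Of 22 AP-1 and immediate early genes 9 rose and 4 fell. JUN rose by 1.75 (205 CPM in TGFβ + Aramchol, 60.8 CPM in Aramchol), FOSB by 2.39 (6.69 CPM in TGFβ + Aramchol, 1.29 CPM in Aramchol) and IER2 by 0.81, and the falls were NR4A2 (1.09), KLF2 (0.99), IER5 (0.50) and FOSL2 (0.26). FOSL2 missed the threshold in 7 fits without 1 library (Aramchol replicates 1 and 2, TGFβ + Aramchol replicates 1 and 3 and each TGFβ replicate; edgeR adjusted p up to 0.162). Feedback genes of the MAPK pathway had no prevailing direction, with 5 of 16 higher and 6 lower, which turned to 7 higher and 6 lower with a term for number 3. DUSP5, a nuclear phosphatase of ERK, fell by 0.87 (22.7 CPM in TGFβ + Aramchol, 41.4 CPM in Aramchol) and SPRY1, a receptor signalling inhibitor, by 1.09, while DUSP7 and DUSP10 rose by 1.03 and 0.89.

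Mitosis genes fell by small amounts, 26 of 28, with a median log2 fold change of -0.35, and the other 2 were not called. BUB1, a spindle checkpoint kinase, was at 154, 154 and 143 CPM with TGFβ + Aramchol and at 231, 233 and 250.3 CPM with Aramchol, a fall of 0.66. MKI67, the proliferation marker, was at 493, 555 and 499 CPM in TGFβ + Aramchol against 725, 736 and 783 CPM in Aramchol and fell by 0.54, and the spindle motor genes KIF20A and KIF23 fell by 0.51 and 0.41. In these genes the groups did not overlap, although each fall was under 2-fold. Replication genes as a list did not go with them: 5 of 32 rose and 8 fell, with a median of -0.02. The cyclin E gene CCNE1 rose by 0.79 (22.3 CPM in TGFβ + Aramchol, 13 CPM in Aramchol). E2F2, a driver of S phase entry, fell by 1.49 (9.69 CPM in TGFβ + Aramchol, 27.3 CPM in Aramchol), its relative E2F8 by 0.69 and the licensing factor gene CDT1 by 0.33.

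CDK inhibitors moved apart. CDKN2B, the p15 gene, was at 175, 174 and 178 CPM with TGFβ + Aramchol and at 50.4, 51.0 and 47.5 CPM with Aramchol (log2 fold change 1.82), and CDKN1A, the p21 gene, was at 656, 586 and 744 CPM in TGFβ + Aramchol against 184, 185 and 181 CPM in Aramchol (log2 fold change 1.85). Neither pair of groups overlapped. CDKN2C, the p18 gene, fell by 0.99 (32.9 CPM in TGFβ + Aramchol, 65.2 CPM in Aramchol) and CDKN1B, the p27 gene, by 0.37 (60.2 CPM in TGFβ + Aramchol, 77.6 CPM in Aramchol). Of 16 genes of this list 8 rose and 5 fell. In the list of 18 BCL2 family and death genes 5 rose and 4 fell: the death inducer BMF rose by 1.44 (140.4 CPM in TGFβ + Aramchol, 51.6 CPM in Aramchol), the survival gene MCL1 by 0.45 and the receptor gene TNFRSF10B by 0.57. The caspase inhibitor gene BIRC3 fell by 1.55 (41.2 CPM in TGFβ + Aramchol, 120.5 CPM in Aramchol), the survival gene BCL2L1 by 0.60 and the death gene BCL2L11 by 0.62.

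Most genes that serve secretion rose, by small amounts. Of 26 endoplasmic reticulum chaperone and secretory genes 20 rose and 2 fell. MANF, a secreted chaperone, was at 147, 143 and 148 CPM with TGFβ + Aramchol and at 83.2, 84.1 and 74.9 CPM with Aramchol (log2 fold change 0.85), and EDEM1, which clears misfolded glycoproteins, and the cochaperone gene DNAJB11 rose by 0.59 and 0.56. SAR1A, a GTPase of secretory vesicles, fell by 0.52 (219.9 CPM in TGFβ + Aramchol, 316 CPM in Aramchol) and the stress sensor gene ERN1 by 0.48. Aminoacyl tRNA synthetase genes rose in 12 of 20 cases, by up to 0.36, with CARS1, TARS1 and YARS1 each at 0.35 and GARS1 at 0.31. 7 rose when TGFβ + Aramchol replicate 3 was left out.

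In the ATF4 branch of the integrated stress response 13 of 30 rose and 1 fell. ATF4, the transcription factor of this branch, was at 303, 278 and 299 CPM in TGFβ + Aramchol and at 243, 238 and 249 CPM in Aramchol, a rise of 0.27 (SE 0.05, edgeR adjusted p = 0.00103). The amino acid transporter genes SLC7A5, SLC7A1 and SLC1A5 rose by 1.65 (306 CPM in TGFβ + Aramchol, 97.5 CPM in Aramchol), 0.70 and 0.42, and the stress gene NUPR1 by 0.90. Other known targets of ATF4 were not called: the glutathione-degrading gene CHAC1 (0.30, edgeR adjusted p = 0.115), the cystine importer gene SLC7A11 (0.26, 0.265) and the death-linked factor gene DDIT3 (0.01, 0.971). SLC7A11 was called at 0.0487 with a term for number 3 and at 0.0458 with the libraries numbered 1 and 2. ATF5, the 1 gene of this branch called lower (-0.30), missed the threshold without Aramchol replicate 1 or 2 or TGFβ + Aramchol replicate 3 (edgeR adjusted p up to 0.101).

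NRF2 and glutathione genes had no common direction, with 5 of 28 higher and 6 lower. HMOX1, the heme oxygenase gene, rose by 1.5 (38.4 CPM in TGFβ + Aramchol, 13.6 CPM in Aramchol) and the malic enzyme gene ME1 by 0.59 (103 CPM in TGFβ + Aramchol, 68.4 CPM in Aramchol). AIFM2, which guards lipids against peroxidation, fell by 0.70 (37.7 CPM in TGFβ + Aramchol, 61.3 CPM in Aramchol), the glutathione reductase gene GSR by 0.57 and the thioredoxin reductase gene TXNRD1 by 0.46.

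SCD (chromosome 10, 100347233 to 100364826, plus strand, GRCh38), the desaturase that Aramchol acts on, was at 905, 883 and 979.8 CPM in TGFβ + Aramchol and at 567, 582 and 707 CPM in Aramchol. The groups did not overlap, the library numbered 3 was the highest in both, and SCD rose by 0.58 (SE 0.10, edgeR adjusted p = 0.000458). Fatty acid synthesis genes as a list were split, with 5 of 29 higher and 6 lower. GPAM, which starts glycerolipid synthesis, rose by 0.97 (52.7 CPM in TGFβ + Aramchol, 26.8 CPM in Aramchol), FADS3 by 0.58 and the sugar-sensing factor gene MLXIP by 1.04 (213 CPM in TGFβ + Aramchol, 103 CPM in Aramchol). MLXIPL, the related factor that drives lipogenesis from glucose, was at 13.3, 16.0 and 12.1 CPM in TGFβ + Aramchol against 104, 107 and 125 CPM in Aramchol and fell by 3.02. LPIN1, a phosphatidate phosphatase, fell by 0.83. FASN, the fatty acid synthase gene, was at 787, 810.3 and 933 CPM with TGFβ + Aramchol and at 737, 767 and 898 CPM with Aramchol, overlapping, and was not called (edgeR adjusted p = 0.733).

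Of 26 genes of cholesterol synthesis and SREBP2, 10 fell, and the rest were not called. TM7SF2, a sterol reductase, fell by 1.06 (10.8 CPM in TGFβ + Aramchol, 22.4 CPM in Aramchol), and the lanosterol synthase gene LSS by 0.44. Without Aramchol replicate 3, 4 members of the list were called lower. In the list of 11 LXR and bile acid genes, the cholesterol exporter genes ABCA1 (72.6 CPM in TGFβ + Aramchol, 34.8 CPM in Aramchol) and ABCG1 (14.1 CPM in TGFβ + Aramchol, 6.67 CPM in Aramchol) rose by 1.06 and 1.08 and the bile acid receptor gene S1PR2 by 0.48. MYLIP, a ubiquitin ligase gene induced by LXR, fell by 1.14, the bile acid synthesis gene CYP27A1 by 0.47 and APOE by 0.45.

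In the joint list of PPAR and fatty acid oxidation genes, which also holds receptors and regulators, 12 of 28 fell and 4 rose. PDK4, a kinase that holds back glucose oxidation, was at 4.99, 5.17 and 2.62 CPM with TGFβ + Aramchol against 19.3, 17.6 and 13.5 CPM with Aramchol and fell by 1.98 (SE 0.19). The library numbered 3 was the lowest of each group, without overlap. CPT1A, the carnitine transferase gene, fell by 0.66 (47.5 CPM in TGFβ + Aramchol, 75.1 CPM in Aramchol), PPARGC1A, a coactivator of oxidative genes, by 1.67 and the peroxisomal oxidase gene ACOX2 by 2.56. The receptor gene PPARD rose by 0.99 (134 CPM in TGFβ + Aramchol, 67.4 CPM in Aramchol). Of 31 glycolysis and hypoxia genes 22 rose and the other 9 were not called. VEGFA, the angiogenic factor gene, was at 417, 416 and 407 CPM in TGFβ + Aramchol against 110.0, 113 and 105 CPM in Aramchol, a rise of 1.92. The glycolytic regulator gene PFKFB3 rose by 1.54 (103 CPM in TGFβ + Aramchol, 35.7 CPM in Aramchol), PFKFB4 by 1.61 (97.4 CPM in TGFβ + Aramchol, 32.0 CPM in Aramchol) and the peptide gene ADM by 1.82.

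Interferon stimulated genes were lower in 14 of 35 cases, but this count moved with single libraries. IFIT2, an antiviral effector, was at 90.5, 86.4 and 62.8 CPM with TGFβ + Aramchol and at 300.5, 279.8 and 194 CPM with Aramchol and fell by 1.69, and OASL and IFIT3 fell by 1.34 and 1.07. The factor gene STAT2 fell by 0.55 (129 CPM in TGFβ + Aramchol, 189 CPM in Aramchol). Summed over the 35 genes, the level was 5457, 5551 and 4936 CPM in TGFβ + Aramchol and 8193, 7995 and 5147 CPM in Aramchol, so that Aramchol replicate 3 lay among the TGFβ + Aramchol libraries. The number of falls was 8 without Aramchol replicate 1 or without replicate 2, 9 without TGFβ + Aramchol replicate 3, 24 without Aramchol replicate 3 and 32 with the libraries numbered 1 and 2 alone. Among 16 circadian genes the repressor gene BHLHE40 and the clock gene BMAL1 rose by 2.42 and 0.92, and the output factor genes DBP and HLF fell by 1.35 (3.17 CPM in TGFβ + Aramchol, 8.10 CPM in Aramchol) and 2.82 (0.177 CPM in TGFβ + Aramchol, 1.23 CPM in Aramchol).

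**Figure D3:**
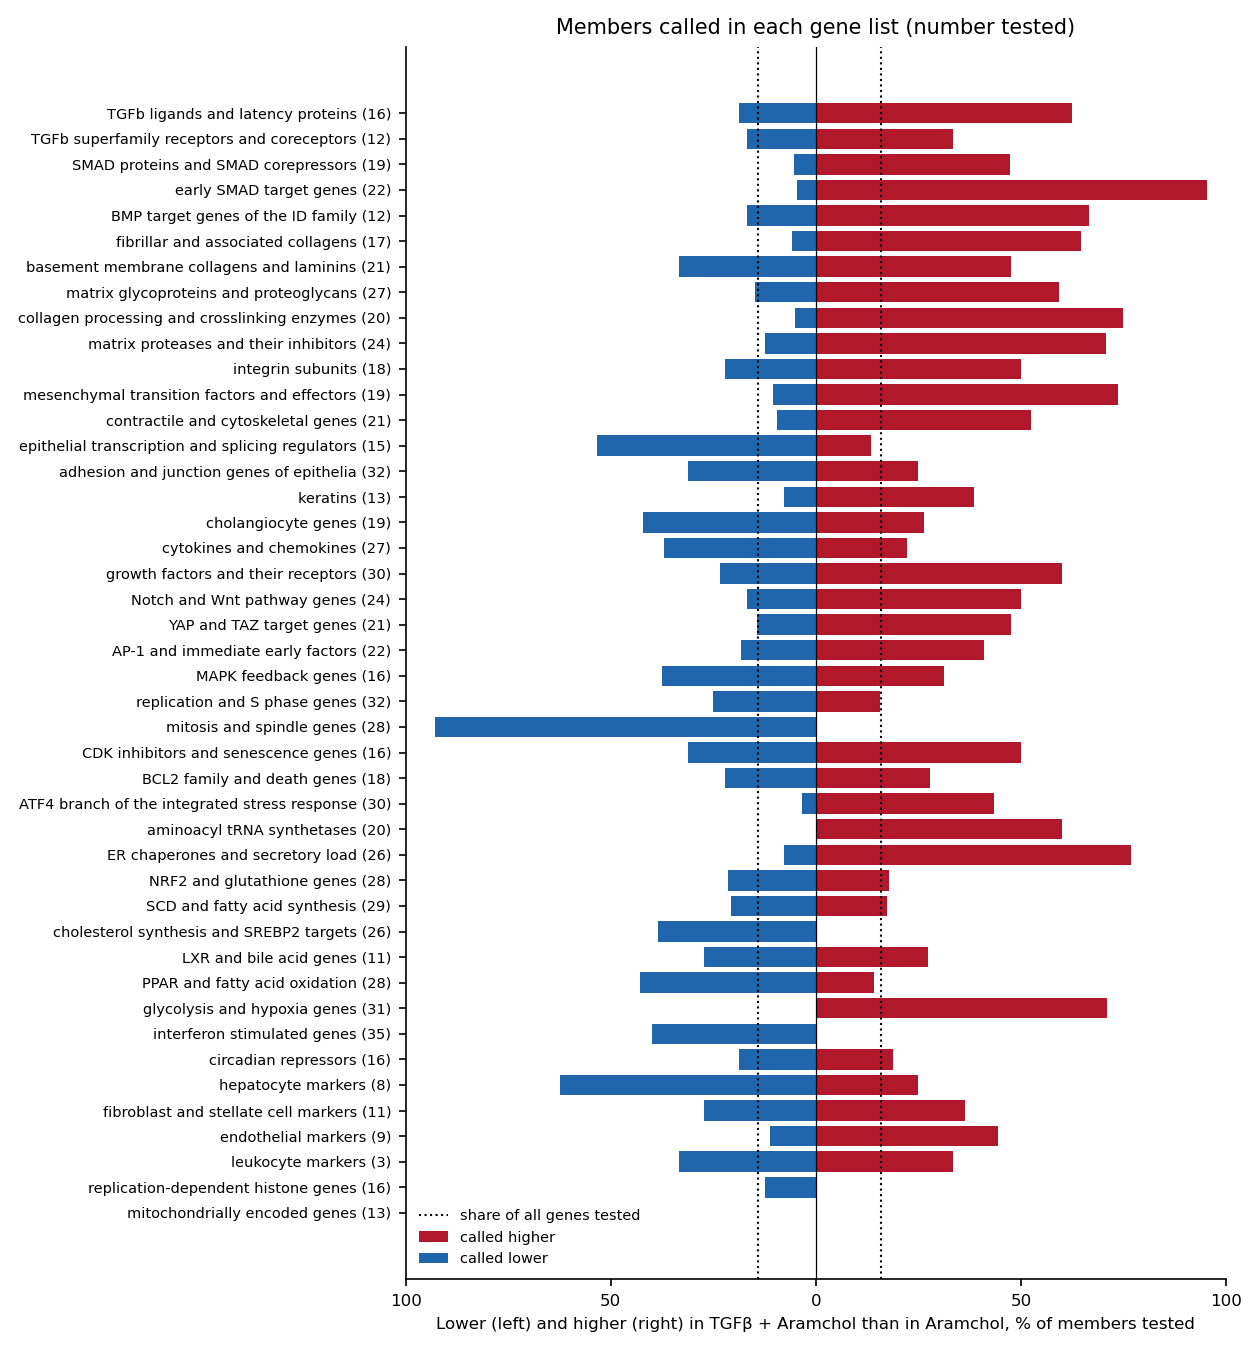
Share of the tested members of each of the 44 gene lists that were called higher (red, to the right) or lower (blue, to the left) in TGFβ + Aramchol than in Aramchol, in % of members tested, with the number tested in brackets; dotted lines mark the shares over all genes, 16.0% higher and 14.2% lower. Early SMAD targets have the longest red bar and mitosis genes the longest blue bar.

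The largest rises were sought among protein coding genes that were called, whose groups did not overlap and whose higher group averaged 5 CPM or more. Many of them were in genes nearly silent with Aramchol alone. CHRNA9, a nicotinic receptor subunit, had 511, 492 and 636 counts in the TGFβ + Aramchol libraries and 0, 1 and 2 in the Aramchol libraries, a ratio of 554 after scaling (95% counting interval 189 to 2689.7, which covers counting error only). AMTN, an adhesion protein of enamel, had 470, 432 and 275 counts in TGFβ + Aramchol against 0, 0 and 1 in Aramchol, a ratio of 1194 (95% counting interval 214 to 47191). Both genes lay on chromosome 4, as did ODAPH, an enamel protein whose promoter is printed above, at 51.4, 47.9 and 43.5 CPM with TGFβ + Aramchol against 0.475, 0.315 and 0.416 CPM with Aramchol. KANK4, a scaffold at adhesions, rose by 8.03 (17.9 CPM in TGFβ + Aramchol, 0.0617 CPM in Aramchol), PTHLH, the parathyroid hormone-like gene, by 5.34 (13.8 CPM in TGFβ + Aramchol, 0.339 CPM in Aramchol), the nucleotide receptor gene P2RY6 by 5.32 and the immune receptor gene HAVCR2 by 5.39. R3HDML rose by 7.57 (7.21 CPM in TGFβ + Aramchol, 0.0381 CPM in Aramchol). It overlaps the antisense gene R3HDML-AS1, and because the sources used here do not say whether the counting used strand, their reads cannot be told apart.

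Of 11 genes with at most 3 counts in each Aramchol library and a mean of at least 1 CPM with TGFβ + Aramchol, 7 were protein coding, and all 11 are described here after their values were seen. Besides CHRNA9, AMTN and KRT14 they were MAF, a leucine zipper factor (182, 173 and 123 counts in TGFβ + Aramchol, 0, 2 and 2 in Aramchol), MMP13, a collagenase (80, 66 and 124 counts in TGFβ + Aramchol, 2, 1 and 1 in Aramchol), ACTC1 and CGB8. ACTC1, the heart actin gene, had 57, 55 and 126 counts in TGFβ + Aramchol and was without a count in Aramchol, which makes it at least 26.1-fold higher against a floor of 3 counts per library. CGB8, which encodes a gonadotropin chain and is uncertain because its family members are nearly the same in sequence, was at least 96.3-fold higher by the same floor. The rest of this set were the long noncoding genes R3HDML-AS1 and ENSG00000250697, the pseudogene ENSG00000269706 and ENSG00000287872, for which the annotation lists no class. In the other direction LGALS12, a galectin gene, had 1, 0 and 1 counts with TGFβ + Aramchol and 73, 90 and 116 with Aramchol.

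The largest falls were sought the same way, and MUC6 was followed by RCSD1, a regulator of actin capping, which fell by 3.93 (2.72 CPM in TGFβ + Aramchol, 41.3 CPM in Aramchol), STEAP4, a metalloreductase, by 3.71 (1.44 CPM in TGFβ + Aramchol, 18.7 CPM in Aramchol), and C9orf152 by 3.59. AGR2, a protein disulfide isomerase needed for mucin folding, was at 1.08, 1.23 and 0.834 CPM with TGFβ + Aramchol against 13, 11.5 and 12.4 CPM with Aramchol, a fall of 3.56. The neuregulin gene NRG2 was at 0.909, 1.11 and 0.864 CPM with TGFβ + Aramchol against 12.6, 12.3 and 9.37 CPM with Aramchol, a fall of 3.57. The Wnt ligand gene WNT4 fell by 3.41, the chitinase-like gene CHI3L1 by 3.19 (1.22 CPM in TGFβ + Aramchol, 11.2 CPM in Aramchol), the apical sorting gene MAL2 by 2.97 and SLC16A6, a transporter, by 2.87. Among genes not listed as protein coding, sought the same way but from an average of 2 CPM, the largest rises were LINC01583 (8.37 CPM in TGFβ + Aramchol, 0.0696 CPM in Aramchol), ENSG00000287872 (3.41 CPM in TGFβ + Aramchol, 0.0358 CPM in Aramchol), APCDD1L-DT (4.05 CPM in TGFβ + Aramchol, 0.175 CPM in Aramchol) and LINC01629 (4.15 CPM in TGFβ + Aramchol, 0.201 CPM in Aramchol). The largest falls among them were LINC02688 (0.385 CPM in TGFβ + Aramchol, 8.66 CPM in Aramchol), ENSG00000281969 (0.300 CPM in TGFβ + Aramchol, 2.40 CPM in Aramchol), WDR86-AS1 (1.14 CPM in TGFβ + Aramchol, 8.86 CPM in Aramchol) and CYP4F35P (0.408 CPM in TGFβ + Aramchol, 2.07 CPM in Aramchol).

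Markers of other cells that a bile duct culture could hold were read beside these changes. In bulk RNA, fewer cells of a type and less RNA per cell cannot be told apart. Fibroblast and stellate cell markers summed to 327, 327 and 366 CPM with TGFβ + Aramchol and to 181, 178 and 189 CPM with Aramchol. PDGFRB alone made up 139, 143 and 168 CPM of the sums with TGFβ + Aramchol. With Aramchol the highest member was THY1, at 94.8, 90.7 and 85.0 CPM. 4 of 11 tested rose, FAP by 3.38 (8.90 CPM in TGFβ + Aramchol, 0.848 CPM in Aramchol), PDGFRB, PDPN by 1.19 and LUM by 1.13, and 3 fell, the pericyte gene RGS5 by 0.55, PDGFRA and LRAT. PDGFRA was at 6.37 CPM in TGFβ + Aramchol and 9.0 CPM in Aramchol and missed the threshold without Aramchol replicate 3 or TGFβ + Aramchol replicate 2 (edgeR adjusted p up to 0.107), and LRAT, at 0.178 CPM in TGFβ + Aramchol and 0.335 CPM in Aramchol, missed it in 10 alternatives: with no filter, the replicate block, only the groups compared, the libraries numbered 1 and 2 or DESeq2, and without any 1 of the Aramchol replicates or TGFβ + Aramchol replicate 1 or 3 (adjusted p up to 0.267). COL3A1 was near 0 in all 6 libraries, as given above.

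Of 8 tested hepatocyte markers 2 were called higher and 5 lower. The whole list summed to 107, 96.6 and 107 CPM in TGFβ + Aramchol and to 122, 133 and 124 CPM in Aramchol, with TTR and AHSG without a count and ALB at most 0.154 CPM. SERPINA1, a protease inhibitor gene, made up most of that sum, at 92.2, 82.0 and 85.2 CPM in TGFβ + Aramchol and 71.7, 76.1 and 68.0 CPM in Aramchol. It was called higher but missed the threshold without Aramchol replicate 1 or 3 or TGFβ + Aramchol replicate 1 (edgeR adjusted p up to 0.0982). The fibrinogen gene FGG fell by 2.06 (8.43 CPM in TGFβ + Aramchol, 35.2 CPM in Aramchol), APOB by 1.97 and TF by 2.03, and the liver factor gene HNF4A rose by 3.42 (3.65 CPM in TGFβ + Aramchol, 0.343 CPM in Aramchol). Of 3 tested leukocyte markers 1 rose and 1 fell, and the list summed to 22.0, 20.9 and 21.5 CPM in TGFβ + Aramchol and to 29.9, 30.4 and 30.5 CPM in Aramchol. PTPRC was at most 0.0744 CPM and CD3E without a count. CSF1R rose by 4.04 (14.6 CPM in TGFβ + Aramchol, 0.893 CPM in Aramchol) and CD14 fell by 2.19 (6.25 CPM in TGFβ + Aramchol, 28.5 CPM in Aramchol). Of 9 tested endothelial markers 4 (44.4%) were called higher and 1 lower. The whole list summed to 20.8, 21.2 and 17.6 CPM in TGFβ + Aramchol and to 24.5, 23.9 and 19.0 CPM in Aramchol, with EMCN without a count. The endothelial factor gene ERG rose, to 1.08, 0.497 and 0.417 CPM in TGFβ + Aramchol against 0.0183, 0 and 0.0446 CPM in Aramchol, the junction gene ESAM rose by 1.06 (6.82 CPM in TGFβ + Aramchol, 3.29 CPM in Aramchol), and PECAM1 fell by 0.91 (6.14 CPM in TGFβ + Aramchol, 11.5 CPM in Aramchol). The stricter filter left 1 member called higher and 1 lower, and the fit without TGFβ + Aramchol replicate 1 left 2 higher and 1 lower. ALB, TTR, AHSG, PTPRC and CD3E were thus at or near 0 in both groups, while FGG, CD14 and CSF1R of the same lists were not.

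As signs of RNA quality, the 13 mitochondrially encoded genes took 7.01 to 7.69% of counts with TGFβ + Aramchol and 7.24 to 7.79% with Aramchol, and none was called by edgeR (2 were with the libraries numbered 1 and 2 alone, and 1 without TGFβ + Aramchol replicate 2). Replication-dependent histone genes, which are multigene families and uncertain one by one, summed to 107, 94.2 and 126 CPM in TGFβ + Aramchol and to 112, 130.3 and 156 CPM in Aramchol, and 2 of 16 fell.

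Whether the response differed from that of cells without the compound was tested as the difference of the log2 fold changes, TGFβ + Aramchol over Aramchol minus TGFβ over vehicle. In all, 3 of 21567 genes (0.0139%) passed by edgeR. At an unadjusted p under 0.05 there were 1137 (5.27%), of which 539 were higher and 598 lower. In each of the 3 the rise was smaller with Aramchol. FN1 was at 3686, 4091 and 4554 CPM in TGFβ + Aramchol and 643, 657 and 676 CPM in Aramchol, and at 6954, 6960.5 and 8339 CPM in TGFβ and 666, 685 and 627 CPM in vehicle. The levels without TGFβ were close, and the TGFβ + Aramchol levels lay below each of the TGFβ levels. The log2 fold change was 2.64 with Aramchol and 3.49 without, a difference of -0.85 (95% interval -1.09 to -0.61, edgeR adjusted p = 0.0205).

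JAG1, the Notch ligand gene, was at 164, 167 and 161 CPM in TGFβ + Aramchol and 80.4, 81.1 and 76.3 CPM in Aramchol, and at 184, 186 and 187 CPM in TGFβ and 64.5, 65.7 and 64.5 CPM in vehicle. SEC24D, a coat protein of the vesicles that carry collagen from the endoplasmic reticulum, was at 109.8, 111 and 117 CPM in TGFβ + Aramchol and 85.0, 81.7 and 84.2 CPM in Aramchol, and at 107, 111 and 118 CPM in TGFβ and 58.2, 59.6 and 57.8 CPM in vehicle. For both genes the Aramchol libraries lay above the vehicle libraries. For JAG1 the TGFβ + Aramchol libraries lay below the TGFβ libraries, while for SEC24D these overlapped. The difference was -0.47 for JAG1 (95% interval -0.60 to -0.33, 1.05 with Aramchol and 1.52 without; edgeR adjusted p = 0.0205) and -0.51 for SEC24D (-0.66 to -0.36, 0.43 and 0.94; 0.0233).

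These calls were lost in most fits that left out 1 library. With the libraries numbered 1 and 2 alone they held, at an edgeR adjusted p of 1.37e-07 for FN1, 0.000431 for JAG1 and 0.000575 for SEC24D. When each of the 12 libraries was left out in turn, FN1 kept its call in 4 fits (edgeR adjusted p 0.0113 to 0.136), JAG1 in 2 (0.0153 to 0.136) and SEC24D in 3 (0.0231 to 0.142), although the difference stayed within -0.93 to -0.76 for FN1, -0.49 to -0.45 for JAG1 and -0.54 to -0.47 for SEC24D. In 8 of these fits, those without Aramchol replicate 1 or 2, TGFβ + Aramchol replicate 1 or 2, TGFβ replicate 2 or 3 or Vehicle replicate 1 or 2, no gene passed by edgeR, with 870 to 1283 at an unadjusted p under 0.05. By DESeq2 with all libraries 26 passed, 3 higher and 23 lower.

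**Figure D4:**
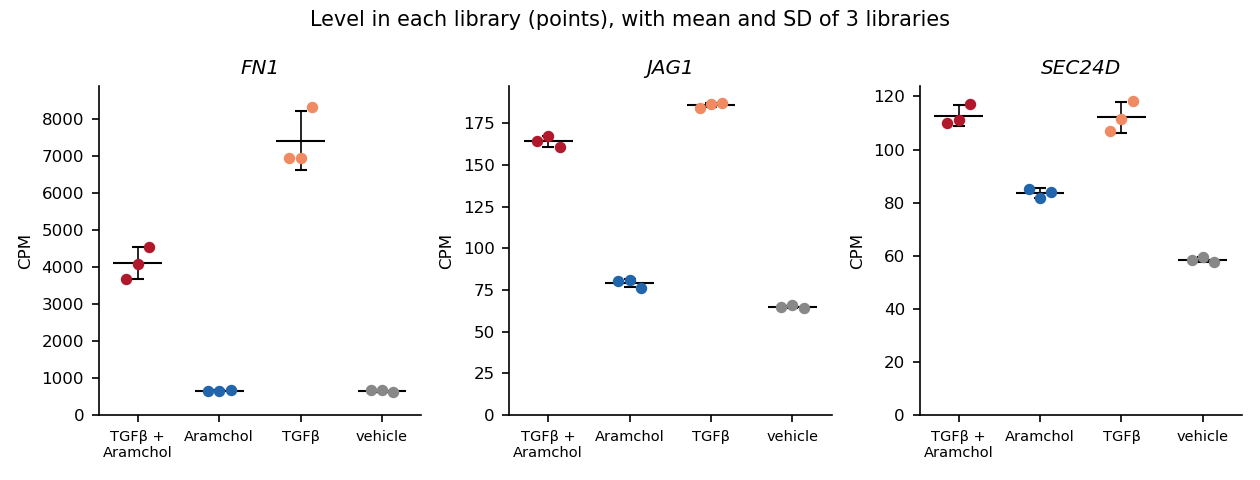
Level in CPM of FN1, JAG1 and SEC24D in each library (points), with means as horizontal lines and the SD of 3 libraries as bars, in the order TGFβ + Aramchol, Aramchol, TGFβ and vehicle; each panel has its own axis from 0. FN1 reaches 3686 to 4554 CPM in the TGFβ + Aramchol libraries, below the TGFβ libraries, while the groups without TGFβ lie together.

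Other genes were placed beside these as values, since none passed the test of the difference. They are examples and do not show which way the genes went as a whole. SCD, INHBA, COL4A1 and COL1A1 each had the smaller rise with Aramchol. Over all genes, at an unadjusted p under 0.05 by edgeR, 539 differences were higher and 598 lower. For SCD the log2 fold change was 0.58 with Aramchol and 1.14 without (difference -0.56, 95% interval -0.87 to -0.25, not adjusted; edgeR adjusted p = 0.683). For INHBA these were 3.15 and 4.17 (-1.03, -1.47 to -0.58; 0.303), for COL4A1 2.29 and 2.73 (-0.44, -0.61 to -0.28; 0.175), and for COL1A1 1.68 and 2.17 (-0.49, -0.89 to -0.08; 0.918). PMEPA1 had 4.16 and 4.20 (difference -0.04, 95% interval -0.38 to 0.29), CDH1 -2.56 and -2.72 (0.17, -0.13 to 0.46) and ACTA2 0.23 and 0.22 (0.01, -0.33 to 0.35). A p that misses the threshold does not show that the responses were equal.

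Over all genes the responses were much alike in direction. Of the 6514 genes called with Aramchol, 5694 (87.4%) were also called in the same direction by TGFβ over vehicle, where 7978 genes (37.0%) were called in all, and these 5694 were 71.4% of the TGFβ set. 1 gene was called in opposite directions. The contrasts share no library, but they share the fit's estimate of spread. For the genes called higher with Aramchol the median log2 fold change was 0.57 with and 0.62 without the compound, and 67.7% of them had the smaller change with it. For those called lower the medians were -0.53 and -0.54, with 59.5% smaller. Among genes that changed at least 2-fold, the medians were 1.76 and 1.89 for the 1123 rises and -1.56 and -1.5 for the 773 falls. The genes were selected on the change with Aramchol, so these shares are a description and carry no test.

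**Figure D5:**
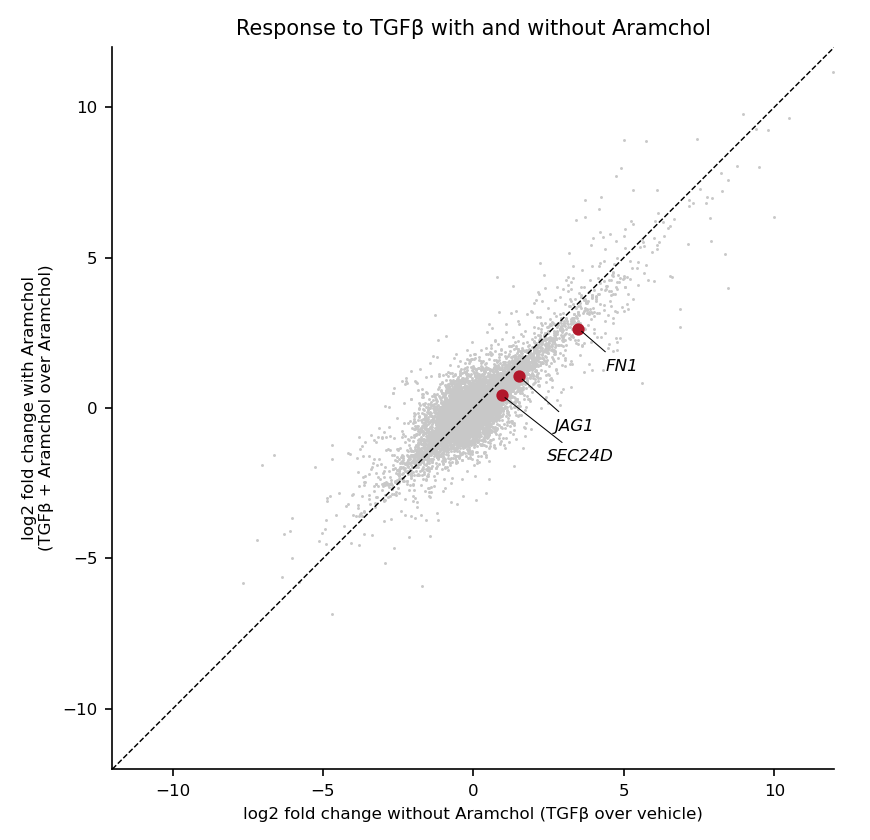
Each grey point is 1 of 21567 genes, with the log2 fold change of TGFβ over vehicle on the x axis and of TGFβ + Aramchol over Aramchol on the y axis; the dashed line marks equal changes, and red points are the 3 genes whose difference passed. FN1, JAG1 and SEC24D lie below the line.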

How the data were processed

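RNA was sequenced from 12 libraries in 4 groups of 3. The submitters' processing notes name GRCh38, STAR 2.7.9a, featureCounts (Subread) and DESeq2; the sources used here do not give the annotation release or the strand setting. The deposited table holds the authors' raw counts for each gene, as whole numbers, for 62703 gene IDs, of which 20616 have no count. Symbols came from a separate list of gene names, which gave one for 62625 of the IDs. No 2 of 66 library pairs agreed within sampling noise. From these counts, edgeR 4.0.16 (R 4.3.3) kept 21567 genes by filterByExpr, applied TMM scaling, and fitted 4 group means over all 12 libraries with the quasi-likelihood test (8 residual degrees of freedom, biological coefficient of variation 8.90%), with Benjamini-Hochberg adjustment over all genes tested. The contrasts were TGFβ + Aramchol over Aramchol and the difference of that change from TGFβ over vehicle. CPM and their SD were computed from the counts. The counting intervals of ratios and the floors of 3 counts per library cover counting error only. The intervals of the differences of log2 fold changes came from the SE of the quasi-likelihood fit. They therefore include the spread among libraries. On simulated counts, changes of 1.5-fold were called in 82% of 50 genes for TGFβ + Aramchol over Aramchol, and differences of that size in 54% of 50 genes. The changed genes were drawn only from those with a mean above 1 CPM, far fewer were changed than were called in the data, and no effect of the library number was simulated. These shares therefore do not hold for all genes tested. The alternatives were scaling by RLE or by the upper quartile, a stricter filter or none, a replicate block, a term for number 3, the 2 groups alone, the libraries numbered 1 and 2 alone, leaving out each library, and DESeq2 1.42.0. The 44 gene lists, the motifs and the members were chosen with earlier results of these data known. The text names 40 fixed genes, the 4 called members of each list with the smallest p, members needed to state small counts, the 12 largest rises and falls at 5 CPM or more among protein coding genes, the 4 largest rises and falls at 2 CPM or more among other genes, and the genes called for the difference; others are said to be chosen later. Some genes that the rule gives are not reported here. Gene classes came from GENCODE, with RefSeq where it had none.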

Additional observations from a re-analysis of the deposited data

Results flagged for a closer look

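The test of the difference between the responses to TGFβ with and without Aramchol passed for 3 genes. The log2 fold change with the compound was smaller by a difference of -0.85 for FN1 (SE 0.11), -0.47 for JAG1 and -0.51 for SEC24D. Each of these calls was lost in most fits that left out 1 of the 12 libraries, as given above. Groups of 3 libraries are too small for a formal check of single libraries that stand apart, so none was made. Vehicle replicate 3 lay at 5.32 on the second principal component, against -24.8 and -27.3 for Vehicle replicates 1 and 2. The Aramchol libraries lay between 10.1 and 15.6 on it. Without Vehicle replicate 3, 7374 genes were called in TGFβ + Aramchol against Aramchol and 7 for the difference. What sets this library apart was not tested.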

How the results depend on the processing

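The count of genes called in TGFβ + Aramchol against Aramchol, and the counts of rises and falls, stayed within 1.5 times of 6514, 3450 and 3064 in the 21 alternatives, with 2876 to 3872 rises and 2398 to 3502 falls when 1 library was left out; upper quartile scaling gave 3112 rises and 3493 falls. Changes of at least 2-fold numbered 1025 with the stricter filter and 1710.0 to 1953 without 1 library. Leaving out the libraries numbered 3 gave 3603 rises and 3276 falls. With a replicate block 4021 genes rose and 3674 fell, and with a term for number 3 4062 rose and 3713 fell. Deviations of same-numbered TGFβ + Aramchol and Aramchol libraries correlated at 0.0972, 0.0812 and 0.159, and each library correlated best with its own number. Over all pairs of the 4 groups the correlations were 0.00739 to 0.107 for number 1, 0.0158 to 0.0812 for number 2 and 0.111 to 0.221 for number 3. This is a hint from the data and not from the design, and the main fit held no term for the number. The count of genes whose response differed with Aramchol was 3, but 151 with no filter, 23 with a replicate block, 31 with a term for number 3, 208 with the libraries numbered 1 and 2, 26 by DESeq2, and 0 to 7 without 1 library (870 to 1480.0 at an unadjusted p under 0.05); the cause was not tested. FN1, JAG1 and SEC24D passed in each setting that kept all 12 libraries and with the libraries numbered 1 and 2. Of 285 called genes that the naming rule gives, 256 stayed called in the 21 alternatives and 29 were lost without at least 1 library. MAPK feedback genes turned from 5 higher and 6 lower to 7 higher and 6 lower, 13 in all, with the replicate block and with the term for number 3. Interferon stimulated genes (14 called) numbered 26 with no filter, keratins (6 called) 10 with the libraries numbered 1 and 2, endothelial markers (5 called) 2 with the stricter filter and 3 without TGFβ + Aramchol replicate 1, and histone genes (2 called) 4 with no filter, 4 with the replicate block and 5 with the term for number 3. MAPK feedback genes numbered 7 without Aramchol replicate 3.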
